A study of Mus musculus with 4 samples.

Results

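The coagulation and matrix genes of splenic monocytes described here are 7 of the 27998 genes in the deposited table, F3, F10, F5, F13a1, Thbs1, Fn1 and Vcan. They were listed by name, and F13a1 and Thbs1 were chosen by their lower levels after GM-CSF in P-I cells, so their values in that contrast are a description and carry no test. CITE-seq, which reads antibody-derived tags and RNA from the same cell, was run on CD11b+ splenocytes sorted from mice in steady state (1 library, 4827 cells, 22358903 unique molecular identifiers or UMIs) and from mice given 3 once-daily injections of GM-CSF (1 library, 6804 cells, 35007567 UMIs). In the study's general protocol the mice were C57BL/6 of 8 to 12 weeks, each injection held 10 µg and spleens were taken 24 h after the last one. How many mice went into each library is not given in the sources used here. Since each condition is 1 library, conditions cannot be tested against each other, cells are not replicates, and an effect of GM-CSF cannot be told apart from a difference between the libraries.

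Monocytes and macrophages carry several parts of the coagulation system. Tissue factor, the product of F3, starts coagulation on the surface of activated monocytes. Factor X (F10) is the protease on which the initiating pathways converge, factor V (F5) is its cofactor, and the A subunit of factor XIII (F13a1) is a transglutaminase that crosslinks fibrin and also fibronectin. Thrombospondin-1 (Thbs1), fibronectin (Fn1) and the proteoglycan versican (Vcan) are secreted proteins of the provisional matrix that forms in wounds and inflamed tissue. In the mouse, classical Ly6C-high monocytes are known for F13a1, Fn1 and Vcan, while platelets carry much of the body's Thbs1 and F13a1.

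Levels are given as CPM, the UMIs of a gene per 1e6 UMIs of a group of cells, with exact Poisson 95% intervals. A ratio is the CPM after GM-CSF over the CPM in steady state with 0.5 counts added to each sum. All intervals cover counting error only, not the spread between cells or between mice. Cells of the clusters with features of monocytes, macrophages and dendritic cells, which the authors gathered as the MoMacDC bundle, numbered 2135 in steady state and 3940 after GM-CSF and carry 17 cluster numbers. Within them the authors gated CD115hi cells on tags into P-I (Ly6C+), P-II, P-III (MHC II+) and P-IV (MHC II+ CD301b+). The 2 libraries shared 8 cell barcodes. The CD11b+ sort still held 196 and 79 cells labelled B cell, and the cells labelled cDC2-A in steady state carried 15364 CPM of 5 natural killer cell genes, against their label.

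Because F13a1 was lower after GM-CSF in the same clusters in which F10 and Vcan were higher, the 250 bases before the start of these genes are shown, from RefSeq on GRCm38.p6, written 5′ to 3′ on the strand of the gene. Of the 7 genes, 5 had an entry (F13a1, F10, F5, F3 and Vcan). The capitals mark a match to the core of the PU.1 motif, GAGGAA, 66 bases before the start of F13a1.
F13a1, chr13:37050245-37050494, minus strand: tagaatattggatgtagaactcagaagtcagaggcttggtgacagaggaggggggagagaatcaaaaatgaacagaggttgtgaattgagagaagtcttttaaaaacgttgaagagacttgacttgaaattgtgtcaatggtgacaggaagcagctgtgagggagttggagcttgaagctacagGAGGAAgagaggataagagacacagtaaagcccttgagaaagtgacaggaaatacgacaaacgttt
F10, chr8:13037058-13037307, plus strand: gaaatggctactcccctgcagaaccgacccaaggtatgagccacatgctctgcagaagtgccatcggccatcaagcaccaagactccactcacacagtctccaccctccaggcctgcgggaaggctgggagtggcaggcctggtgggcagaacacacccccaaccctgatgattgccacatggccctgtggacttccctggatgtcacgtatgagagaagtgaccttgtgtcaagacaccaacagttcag
Vcan, chr13:89742513-89742762, minus strand: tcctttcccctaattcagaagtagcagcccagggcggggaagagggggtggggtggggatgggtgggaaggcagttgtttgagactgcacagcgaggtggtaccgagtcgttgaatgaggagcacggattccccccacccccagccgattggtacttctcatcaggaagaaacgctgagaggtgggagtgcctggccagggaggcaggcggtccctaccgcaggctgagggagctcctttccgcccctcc
On both strands the motifs searched were PU.1 (GAGGAA, in 23.4% of 32536 promoter windows), C/EBP (TTGCNNAA, 9.57%), AP-1 (TGANTCA, 6.73%), STAT (TTCNNNGAA, 7.04%) and the TATA box (TATAAA, 12.3%), and no 2 of them overlapped here. None of the 5 was found in the windows of F10, Vcan and F5, while that of F3 held AP-1 matches 146 and 135 bases before its start. A second start of F13a1, 1031 bases into the gene, had no match. A match of this kind is a run of letters and not a binding site, and its absence says only that the letters are not in the window.

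F13a1 lies on chromosome 13 (36867178 to 37050244, minus strand, GRCm38), as does Vcan (89655312 to 89742509, minus strand). F10 lies on chromosome 8 (13037308 to 13056676, plus strand) and F3 on chromosome 3 (121723537 to 121735048, plus strand). F5 (164151838 to 164220277, plus strand) and Fn1 (71585520 to 71653200, minus strand) lie on chromosome 1 and Thbs1 on chromosome 2 (118111876 to 118127133, plus strand). Of these, F13a1, F5, Thbs1, Fn1 and Vcan overlap annotated genes on the opposite strand, and F5 also a pseudogene on its own strand. The strand setting of the counting is not given in the sources used here, so UMIs of such neighbours were not set apart.

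F3 was close to absent. It had 4 UMIs in the whole steady-state library and 5 after GM-CSF, of which 1 lay in the bundle. In the steady-state bundle its 0 UMIs allow a level of up to 0.201 CPM. The other 6 genes had 7040 (F13a1), 3041 (F10), 1193 (F5), 4215 (Thbs1), 21471 (Fn1) and 2602 UMIs (Vcan) over both libraries.

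F13a1, F10, Fn1 and Vcan were genes of the bundle, whereas F5 and Thbs1 were shared with granulocytic cells. In steady state 98.7% of F13a1, 96.5% of F10, 99.1% of Fn1 and 98.1% of Vcan UMIs lay in the bundle, and after GM-CSF 99.1, 91.7, 99.5 and 99.4%. The bundle held 72.7% of Thbs1 UMIs in steady state and 7.23% after GM-CSF, and 45.6 and 21.6% of those of F5. After GM-CSF 76.7% of Thbs1 and 66.6% of F5 UMIs lay in the cells labelled Neutrophil, against 12.01 and 20.4% in steady state. Such shares depend on cell makeup as well as on levels. Neutrophil cells numbered 146 in steady state and 893 after GM-CSF, and held Thbs1 at 325 and 196 CPM and F5 at 100.8 and 88.1. The bundle itself held 14952907 of all 22358903 UMIs in steady state and 27088646 of 35007567 after GM-CSF.

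Set against the other CD11b+ cells of the steady-state library, the bundle held F13a1 at 415 CPM (11.3 outside), F10 at 70.3 (5.13), Fn1 at 979 (18.4) and Vcan at 80.2 (3.11). These 4 of 6 counted members were at least 2-fold higher in the bundle, as were 18% of the 10291 genes with 50 UMIs or more over both sets of cells. The median log2 ratio over all those genes was 0.27. Thbs1 was at 143.7 CPM inside and 109.0 outside, and F5 was lower inside, at 16.5 against 39.7. Of the F13a1 UMIs found outside the bundle, 67.9% lay in the 53 cells there that were called as doublets. The ratio of F13a1 was 36.4 with all cells and 105.1 without called doublets, that of Fn1 53.1 and 135.5, and that of Vcan 25.3 and 53.9. In the GM-CSF library the same 4 of 6 members were at least 2-fold higher in the bundle, beside 36.3% of 10717 genes, whose median log2 ratio was 0.60. F5 and Thbs1 were at least 2-fold lower there, beside 11.8% of genes, with F5 at 5.21 CPM inside and 64.7 outside and Thbs1 at 3.36 and 147.5.

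The label monocyte was checked on 4 markers of classical monocytes (Ly6c2, Ccr2, Chil3, Plac8), whose summed level was 11499 CPM in bundle cluster 6 and 10283 in cluster 5 in steady state. Fn1 was highest in these clusters among the bundle clusters with 20 or more cells in that library, and F13a1 was highest in clusters 6, 13 and 5 (1228, 704 and 612 CPM). In steady state the summed classical monocyte list was at 7396 CPM in the bundle and 1977 outside it. After GM-CSF the list was at 3194 CPM inside and 6176 outside, so in that library it does not mark the bundle. Cluster 4 was taken as non-classical monocytes, for which no marker gene values are given here. Its median Ly6C tag count in steady state was 32, against 1272 in cluster 6. In cluster 4 F13a1 was at 5.16 CPM, Fn1 at 23.7 and Vcan at 1.03 in steady state, while F10 was at 55.7. Platelets, known for Thbs1 and F13a1, left little trace. Of 11 platelet genes 4 were detected in the bundle of each library, Ppbp and Gp9 were at 0 in steady state, and the list summed to 2.27 CPM there and 2.81 after GM-CSF. Leaving out all cells with a platelet UMI (78 and 115 cells) moved none of the 23 counted ratios of the members out of its interval.

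F13a1 was lower after GM-CSF in each of the 10 groups in which it could be counted, that is, groups with 20 or more cells in both libraries and 50 or more UMIs over both. Here and for the other genes a group counts as lower or higher when the interval of its ratio leaves out 1. These intervals take UMIs of the same cell as independent, so the counts of groups are a description and not tests. P-I cells lie in several of these groups, so the counts for F13a1 and Thbs1 are not independent of their choice. The B cells are 1 of the 10, whose UMIs lay mostly in called doublets. In cluster 6 it was at 1228 CPM in steady state (297 cells) and 217 after GM-CSF (108 cells), a ratio of 0.177 (0.151 to 0.205). In cluster 5 it was at 612 and 39.7 CPM, and in cluster 2 at 193 and 9.57. The 2 libraries stood nearest to each other in cluster 8, with 101.0 CPM in steady state and 59.3 after GM-CSF (ratio 0.579, 0.406 to 0.874). That cluster had only 28 steady-state cells, whose tags were unlike those after GM-CSF (given below for Fn1). After GM-CSF no bundle cluster with 20 or more cells had as much F13a1 as cluster 6 (217 CPM), followed by clusters 7 (77.1) and 8 (59.3).

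Thbs1, a matricellular protein that binds CD36 and CD47, was lower in all 7 groups counted, and its ratios in the bundle were smaller than those in granulocytic cells. In cluster 6 it was at 357 CPM in steady state and 9.27 after GM-CSF, or 36.3-fold lower. In clusters 5 and 2 the levels were 203 and 172.5 CPM in steady state against 1.98 and 2.02 after GM-CSF. In cells labelled Neutrophil it was at 325 CPM in steady state (146 cells) and 196 after GM-CSF (893 cells), a ratio of 0.601 (0.532 to 0.681). In cells labelled Granulocyte the levels were 116.5 and 81.6 CPM, a ratio of 0.702 (0.589 to 0.832). The interval of cluster 6 (0.0112 to 0.0515) and those of clusters 2, 5, 7 and 11 lie below both granulocytic intervals.

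Fn1, the member with the most UMIs, was lower in 10 of its 12 groups, 1 of them the B cells, where 85.3% of its steady-state UMIs lay in called doublets. In cluster 6 it was at 2780 CPM in steady state and 1290 after GM-CSF (ratio 0.464, 0.435 to 0.495), and in cluster 5 at 1617 and 796. Cluster 8 went the other way, with 229.7 CPM in steady state from only 28 cells and 328 after GM-CSF (1.42, 1.13 to 1.83). Its cells were unlike in tags, with median counts of 51.5 and 240 for CD11c, 25.5 and 397.5 for MHC II and 1 and 48 for CD115. In steady state its CD11c and MHC II medians were near those of cluster 4 (54 and 23). Whether tags have 1 scale in both libraries was not tested. In cluster 4 the interval of Fn1 included 1.

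F10 and Vcan did not share this direction. F10 was higher after GM-CSF in 7 of 11 groups, and in the other 4 the interval included 1. In cluster 6 F10 was at 131 CPM in steady state and 269 after GM-CSF (2.05, 1.72 to 2.45), in cluster 5 at 106 and 189.5, and in cluster 2 at 68.8 and 118. Vcan, a large chondroitin sulfate proteoglycan, was higher in 4 of 6 groups. Its level in cluster 6 was 248 CPM in steady state and 383 after GM-CSF (1.55, 1.35 to 1.78). In cluster 7 it was at 18.9 CPM in steady state, from only 5 UMIs in 31 cells, and 117 after GM-CSF (5.66, 2.64 to 19.3). Cluster 8 had 0 Vcan UMIs in its 28 steady-state cells and 89.4 CPM after GM-CSF, at least 9.73-fold higher when the steady-state cells are set to 3 counts. The tags of these cells differed between the libraries, as given for Fn1. Cluster 11 was lower for Vcan, at 49.6 and 18.2 CPM, and carried 19378 and 31814 CPM of the list of 8 neutrophil genes.

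F5 was lower in 3 of its 4 groups. In cluster 6 it was at 51.0 CPM in steady state and 33.6 after GM-CSF (0.668, 0.422 to 0.999), and in cluster 5 at 21.1 and 3.97. The cluster 6 interval, from 112 and 29 UMIs, only just leaves out 1, and the median log2 ratio of all genes there was -0.15. Granulocytes held 48.4 and 31.9 CPM (0.661, 0.498 to 0.865). Neutrophils stood at 100.8 and 88.1 CPM, with an interval that included 1 (0.708 to 1.09).

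**Figure D1:**
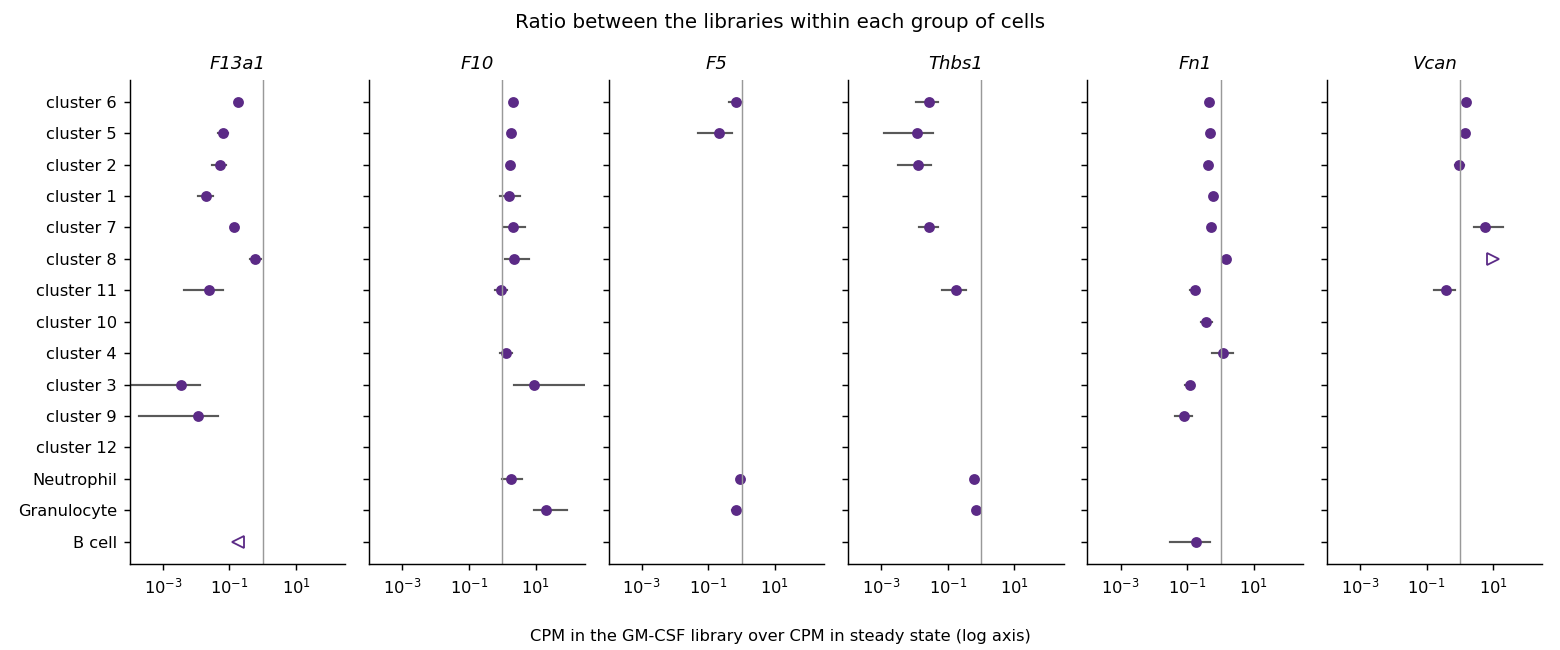
Ratio of the CPM after GM-CSF to that in steady state (log axis), by gene and group of cells, for groups with 20 or more cells in both libraries and 50 or more UMIs of the gene over both. Points are ratios with exact 95% intervals, cut at the edges of the axis, and open triangles are bounds against a group at 0 UMIs. All F13a1 and Thbs1 points lie left of 1, while F10 lies right of 1 in 7 groups and Vcan in 4.

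Cluster 6 shows the members within 1 cluster, whose cells differed between the libraries in other measures. At least 2-fold lower there were F13a1, Thbs1 and Fn1, 3 of 6 counted members, beside 8.64% of the 6149 genes counted. P-I cells are part of this cluster (26 of 297 and 8 of 108), so the count partly restates the choice of F13a1 and Thbs1, and of the other 4 members 1 was lower. At least 2-fold higher was F10, 1 of 6, beside 3.48% of genes. The median log2 ratio of all genes was -0.15. Of steady-state cells 98.3% had a UMI of F13a1 and after GM-CSF 59.3%, with medians of 8 and 1 UMIs per cell. At least 5 F13a1 UMIs were found in 82.8% of the steady-state and 11.1% of the GM-CSF cells. Thbs1 was uneven already in steady state, when 141 of 297 cells had a UMI and the 30 cells with the most held 54.5% of its UMIs. After GM-CSF 4 of 108 cells had one. Cells with an F10 UMI went from 54.9% in steady state to 79.6% after GM-CSF, and those with a Vcan UMI from 58.3 to 80.6%. As a background, 1.15% of the 174 steady-state T cells (median 3747 UMIs per cell) had a UMI of F13a1 and 2.87% one of Fn1.

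Cluster 6 cells of the libraries were not alike in other measures. The median Ly6C tag count was 1272 in steady state and 262.5 after GM-CSF, that of CD115 5 and 22.5 and that of CD11c 3 and 25. Tag counts differed between the libraries in other cells too. Granulocytes had median counts of 176 and 82 for Ly6C, 2 and 4 for CD115 and 2 and 10 for CD11c. The summed classical monocyte list was at 11499 CPM in steady state and 6277 after GM-CSF, with all 4 genes detected in both. The list of 8 neutrophil genes was at 147 and 3365 CPM, with Ly6g at 0 in steady state. In cluster 5 the neutrophil list was at 156 and 174 CPM. There F13a1, Thbs1, Fn1 and F5 were below 1 and F10 and Vcan above it, as in cluster 6. Median mitochondrial shares were 3.67 and 5.40% in cluster 6. Their part in the differences was not tested.

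**Figure D2:**
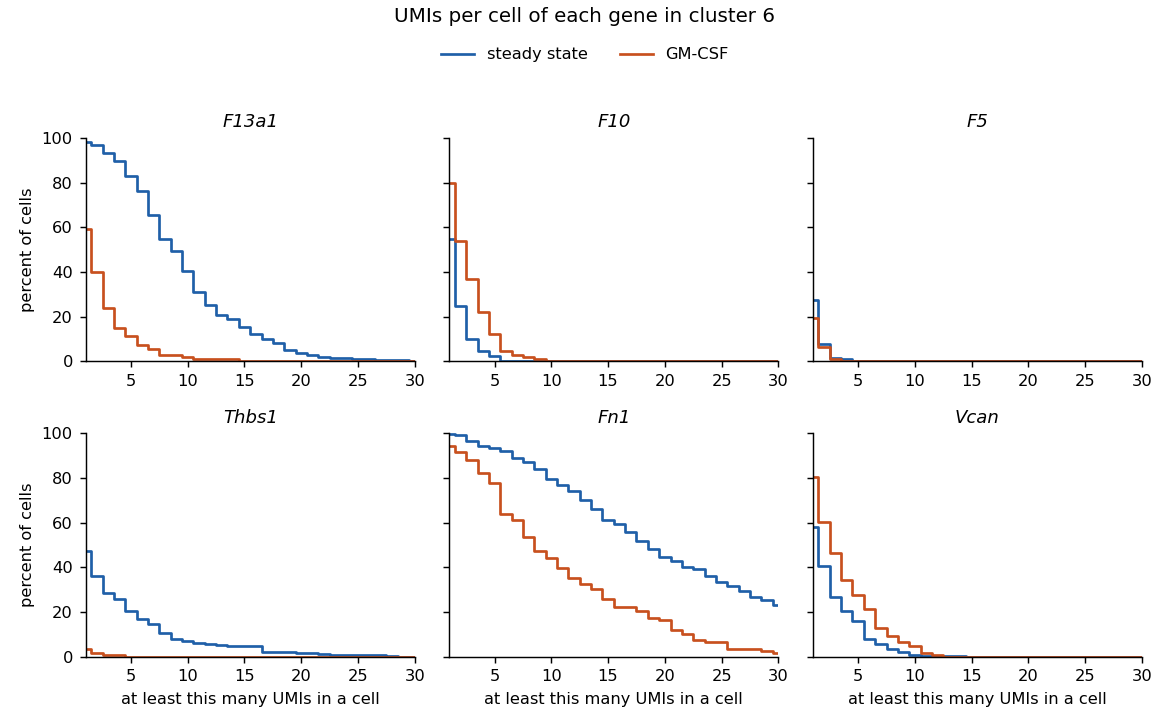
Percent of cluster 6 cells (vertical axis) with at least the number of UMIs of the gene given on the horizontal axis, in steady state (blue, 297 cells) and after GM-CSF (orange, 108 cells). The orange line of F13a1 and Thbs1 lies far below the blue one from 1 UMI on (59.3 against 98.3% and 3.70 against 47.5%), and for F10 and Vcan it lies above.

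Over the bundle as a whole the GM-CSF library was lower in 4 of 6 counted members by 2-fold or more, F13a1, F5, Thbs1 and Fn1, beside 9.46% of 10860 genes and a median log2 ratio of -0.06. The bundle holds all P-I cells, so for F13a1 and Thbs1 this partly restates the choice. F13a1 was at 415 CPM in steady state and 27.3 after GM-CSF (15.2-fold lower), Thbs1 at 143.7 and 3.36 (42.6-fold), Fn1 at 979 and 246 (3.98-fold) and F5 at 16.5 and 5.21 (3.16-fold). F10 was at 70.3 and 66.0 CPM (ratio 0.939, 0.870 to 1.02) and Vcan at 80.2 and 50.7 (0.632, 0.584 to 0.683). The makeup of the bundle differed between the libraries, and clusters 5 and 6 held 34.6% of its cells in steady state and 6.32% after GM-CSF. When both libraries were given the steady-state mix over the 12 clusters with 20 or more cells in each, the ratios became 0.113 for F13a1, 0.460 for Fn1 and 0.503 for F5, and for F10 and Vcan they turned to 1.70 and 1.39. This alternative was chosen after the data were seen.

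The P-I subset, the CD115hi Ly6C+ cells that the study treats as classical monocytes, is the contrast on which F13a1 and Thbs1 were picked. F13a1 was at 507 CPM in 139 steady-state cells (466 to 551) and 38.0 in 187 cells after GM-CSF (28.5 to 49.7), 13.2-fold lower. Thbs1 was at 165 and 6.45 CPM, 24.3-fold lower. With Fn1 (1143 and 561 CPM, 2.04-fold) these are 3 of 5 counted members at least 2-fold lower, and 7.12% of the 5774 genes counted were too, so the share restates the choice for F13a1 and Thbs1. The median log2 ratio of those genes was -0.10. Fn1 lay just past the limit, at a ratio of 0.491 (0.449 to 0.538), and its ratio was 0.561 when each cell counted alike and 0.580 with each cell thinned to 1000 UMIs. F10 stood on the other side, at 76.0 CPM in steady state and 110.4 after GM-CSF (1.45, 1.11 to 1.92), and Vcan at 90.6 and 98.95 (1.09, 0.838 to 1.43). F5 had 39 UMIs over both libraries and was not counted, and F3 had 0.

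Shares of P-I cells with a UMI went from 66.9% in steady state to 11.8% after GM-CSF for F13a1 and from 25.9 to 2.67% for Thbs1. At 1000 UMIs per cell the same shares were 35.5 and 1.09% for F13a1 and 11.6 and 0.546% for Thbs1. For F10 they were 38.1 and 40.1% (8.70 and 7.65% thinned) and for Vcan 28.1 and 32.1% (8.70 and 7.10% thinned). The share of cells differed little for F10 and Vcan and widely for F13a1 and Thbs1.

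P-I cells of the libraries were not alike in the tag that defines them. The median Ly6C tag count was 899 in steady state and 105 after GM-CSF, and only 33 of 187 cells after GM-CSF (17.6%) reached the lowest steady-state count of 195. Ly6C counts also differed in other cells, with medians of 176 and 82 in granulocytes. In T cells the medians were 42 and 8 and in B cells 24 and 8. Whether tag counts have 1 scale in both libraries was not tested, so the cut at 195 need not mean equal Ly6C. In those 33 cells the ratio to steady state was 0.264 (0.179 to 0.366) for F13a1, 0.730 (0.629 to 0.842) for Fn1 and 2.09 (1.45 to 2.95) for Vcan. They held 0 Thbs1 UMIs, at least 14.6-fold lower when set to 3 counts. The summed classical monocyte list was at 8944 CPM in steady state and 5976 after GM-CSF, and the neutrophil list at 3120 and 3646. Cells in G2M made up 3.597% of P-I in steady state and 23.5% after GM-CSF, and the median mitochondrial share was 3.68 and 5.22%. Among cells with at most 5% mitochondrial UMIs the ratio was 0.112 for F13a1, 0.370 for Fn1 and 0.753 for Vcan, a direction opposite to that of all P-I cells for Vcan. Averaged with the steady-state mix of clusters 2, 5 and 11, those with 10 or more P-I cells in each library, the ratio of F13a1 was 0.0446. These clusters hold 92 of 139 steady-state and 80 of 187 GM-CSF P-I cells. Cluster 6, with 8 P-I cells after GM-CSF, is not among them. The part of these measures in the differences was not tested.

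Within the GM-CSF library F10 and Fn1 had lower levels in P-III than in P-I and lower ones again in P-IV, and F13a1 and Vcan had lower levels in P-III than in P-I. P-IV is the CD301b+ population that the study treats as GM-CSF-induced dendritic cells. Fn1 was at 561 CPM in P-I, 415 in P-III (126 cells) and 144 in P-IV (313 cells). Vcan was at 98.95, 17.6 and 5.34 CPM, and F13a1 at 38.0, 4.06 and 0.890, the last 2 from 3 and 2 UMIs with overlapping intervals. The ratio of P-IV to P-III was 0.305 for Vcan (0.127 to 0.722), from fewer UMIs than the 50 needed to be counted. F10 was at 110.4, 71.7 and 44.9 CPM and in P-IV kept the most of its P-I level, while in P-III Fn1 kept more of its own. Of P-IV cells 20.4% had a UMI of F10 (5.47% at 1000 UMIs per cell). Of the 393 Progenitor DC cells of that library 1.27% had one (0% at 1000 UMIs), at a median of 7152 UMIs per cell against 6883 in P-IV. Thbs1 was at 6.45, 2.70 and 1.33 CPM from 9, 2 and 3 UMIs, with overlapping intervals, and F5 had 0 UMIs in both P-III and P-IV.

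Between P-I and P-III, 2 of 4 counted members were at least 2-fold lower in P-III, F13a1 (ratio 0.123, 0.0213 to 0.329, from 3 UMIs in P-III) and Vcan (0.184, 0.0923 to 0.314), beside 2.71% of 5233 genes and a median log2 ratio of 0.02. F10 stood at 0.653 (0.466 to 0.892) and Fn1 at 0.740 (0.646 to 0.845). Without the cell of each group that held the most UMIs of the gene, an alternative added after the data were seen, 1 of 3 counted members passed. Between P-III and P-IV, 1 of 2 counted members was at least 2-fold lower in P-IV, Fn1 (0.347, 0.296 to 0.407), beside 1.01% of 6216 genes and a median log2 ratio of -0.01, while F10 stood at 0.624 (0.445 to 0.891). The P-I cells after GM-CSF enter both this contrast with P-III and that with steady state, and the P-III cells enter both contrasts within the library, so these are not independent of each other. The summed classical monocyte list had the same order, at 5976, 3743 and 1404 CPM, and the neutrophil list stood at 3646, 237 and 229. In steady state P-II, P-III and P-IV held 8, 12 and 7 cells and are not described.

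**Figure D3:**
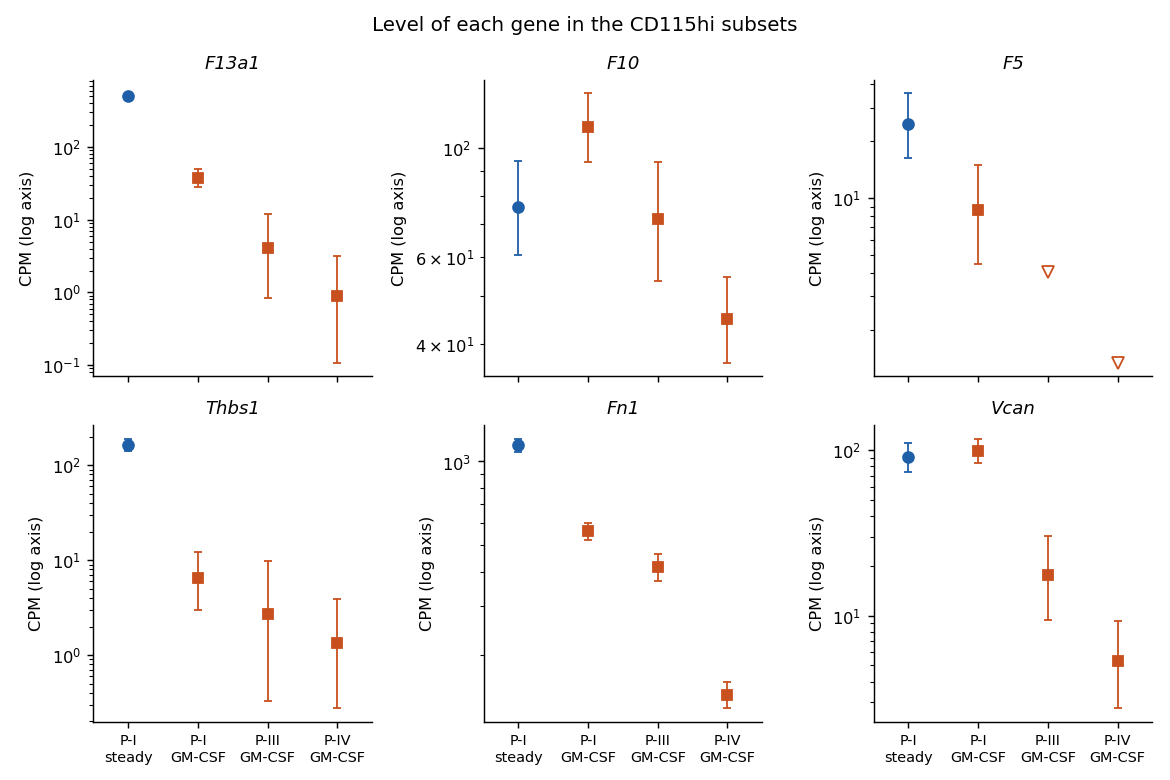
CPM (log axis) of 6 genes in P-I in steady state (blue circle) and in 3 subsets after GM-CSF, P-I, P-III and then P-IV, (orange squares), with exact Poisson 95% intervals. Open triangles mark 0 UMIs, drawn at the level of 3 counts. F13a1 and Thbs1 differ between the P-I points, 507 against 38.0 and 165 against 6.45 CPM, while Vcan differs between P-I and P-III after GM-CSF, 98.95 against 17.6.

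The members also followed the Ly6C tag count within each library. P-I cells, on which F13a1 and Thbs1 were chosen, are gated on this tag, so their order along it is a description. From the lowest to the highest quartile of the Ly6C tag count in the steady-state bundle (532 to 535 cells each), F13a1 was at 4.44, 127, 507 and 837 CPM and Fn1 at 17.4, 233, 1240 and 1985. After GM-CSF (898 to 1074 cells each) F13a1 was at 0.824, 1.29, 7.64 and 84.3 CPM and Vcan at 1.48, 3.37, 23.4 and 148. F10 had the shallowest course, from 25.9 to 109.6 CPM in steady state and from 31.3 to 125 after GM-CSF. In the highest quartile the libraries stood apart for Thbs1 (282 against 8.76 CPM) and F13a1 and close to each other for F10 and Vcan (171 against 148). The CD11c tag ran the opposite way, with F13a1 at 677 CPM in the lowest and 46.8 in the highest quartile in steady state, and at 86.6 and 3.93 after GM-CSF. The quartiles share their library and differ in cluster makeup. Within cluster 6 alone the range narrowed, with F13a1 between 1090 and 1338 CPM over the Ly6C quartiles in steady state and between 112 and 386.5 after GM-CSF.

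**Figure D4:**
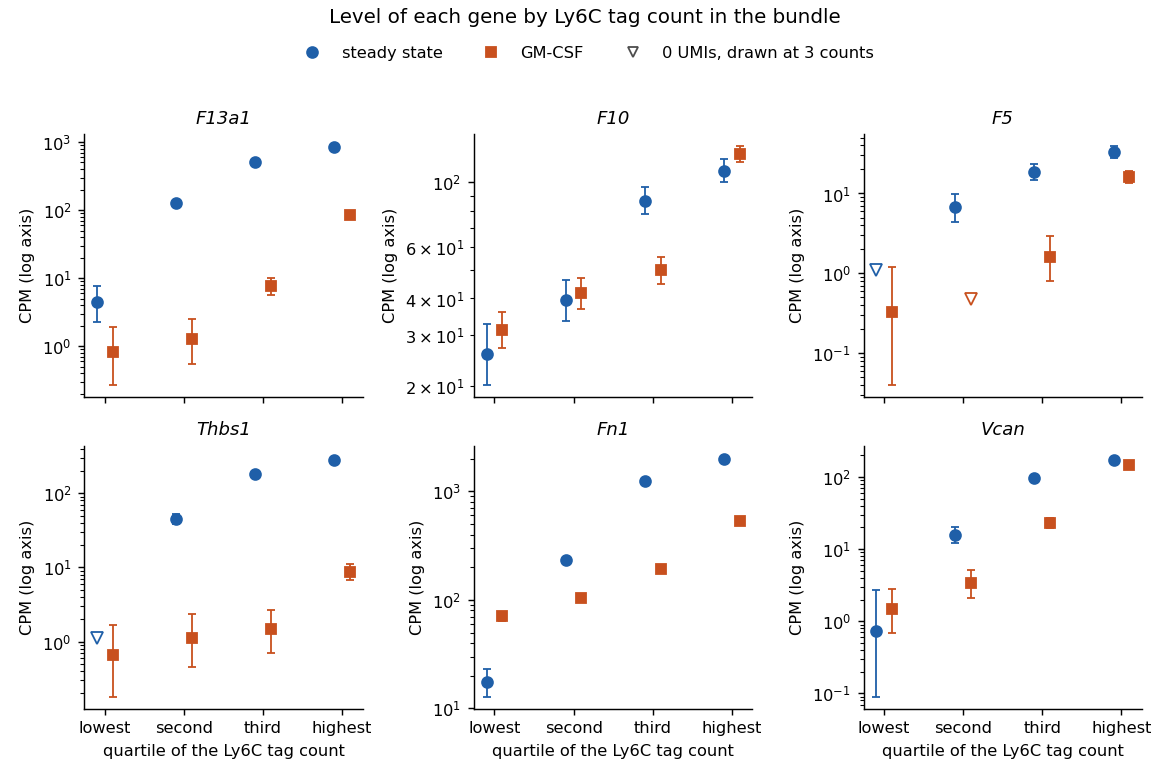
CPM (log axis) of 6 genes in quartiles of the Ly6C tag count of the MoMacDC bundle, cut within each library, in steady state (blue circles) and after GM-CSF (orange squares), with exact Poisson 95% intervals. Open triangles mark 0 UMIs, drawn at the level of 3 counts. F13a1 reaches 837 CPM in the highest quartile in steady state and 84.3 after GM-CSF, while Vcan reaches 171 and 148.

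By the deposited cell cycle phase, the GM-CSF bundle held F13a1 at 10.3 CPM in G1, 40.7 in S and 58.5 in G2M cells, and Vcan at 31.01, 75.4 and 80.6. In steady state F13a1 was at 372, 529 and 616 CPM in the same order. F10 did not follow this order, with 72.9, 58.2 and 55.1 CPM after GM-CSF. Phases differ in cluster makeup, and within cluster 6 F13a1 after GM-CSF was at 184 in G1, 193 in S and 344 in G2M cells, the last from 20 cells.

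In single cells the members were found together somewhat more often than their shares alone would give. In P-I cells after GM-CSF 17 cells had both F13a1 and Vcan, where the product of the shares gives 7.06, and 16 had both F13a1 and F10, where it gives 8.82. In steady-state P-I cells 35 cells had both F13a1 and Vcan against 26.1. In cluster 6, where most cells had F13a1, the same pairs were near the product, with 173 against 170.1 cells in steady state and 58 against 51.6 after GM-CSF for F13a1 and Vcan. UMIs are sparse and deeper cells show more of each gene, so these counts are a description.

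Of the 3 members counted in granulocytes, F10, F5 and Thbs1, only F10 was above its steady-state level. At least 2-fold higher there were 7.29% of the 6257 genes counted. Cells labelled Granulocyte held 4 F10 UMIs in steady state (1929 cells, 1.09 CPM) and 62 after GM-CSF (1791 cells, 25.7 CPM), a ratio of 21.2 with a wide interval (8.77 to 89.4). They lay in 4 and 51 cells, none of them a called doublet. At 1000 UMIs per cell, 1 of 1921 and 26 of 1295 granulocytes had a UMI of F10. In the bundle of the GM-CSF library there were 3.72 Fn1 UMIs for each F10 UMI, in these granulocytes 0.161 and in neutrophils 0.0753. In neutrophils F10 was at 10.1 CPM in steady state and 18.8 after GM-CSF, with an interval that included 1 (0.998 to 3.87).

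B cells carried F13a1 in steady state, at 68.5 CPM from 60 UMIs in 11 of 196 cells, and none after GM-CSF. Of these UMIs 80% lay in 17 called doublets, and without them the level was 16.4 CPM. All 5 F13a1 UMIs of steady-state T cells also lay in called doublets.

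Across 41 groups of cells (bundle clusters and other cell types of either library with 20 or more cells), the genes whose log2(CPM + 10) ran most alike to each member were listed among 9751 genes. For F13a1 they were Mnda (r = 0.853), Fn1 (0.851), the scavenger receptor gene Msr1 (0.845), Arhgef37 and Plcb1, and for Fn1 they were Stxbp6 (0.876), the chemokine receptor gene Ccr2 (0.870), Hpse, Msr1 and F13a1. Vcan ran most like Fn1 (0.839), then Mfsd7a, Msr1, F10 and Ms4a8a. F10 had another neighbourhood, with Rnf217 (0.857), Myof (0.850), Tns4, Aprt and Ms4a6d. Cd177, a neutrophil surface glycoprotein gene, stood in the lists of both F5 and Thbs1, with Hk3 (0.869), Cd177 (0.844), Bmx, Clec5a and Hp for F5 and Cd177 (0.821), Mgst1, Ly6c2, Shfm1 and Lamtor4 for Thbs1. Between members, F5 and Thbs1 stood at 0.722 and F10 and Thbs1 at 0.124. Groups of 1 library share its depth and free RNA, so these values describe the pattern only.

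The wider pathway gives the setting of the members. Of 40 genes of coagulation and fibrinolysis, 19 could be counted in the bundle, 4 were at least 2-fold lower after GM-CSF and 4 at least 2-fold higher, with a median log2 ratio of -0.09 (all genes -0.06). Over all genes counted 9.46% were lower and 8.66% higher by that limit. Lower were the anticoagulant receptor thrombomodulin (Thbd, 42.1 CPM in steady state and 2.81 after GM-CSF), the transglutaminase Tgm2 (83.9 and 14.03), the urokinase inhibitor Serpinb2 (23.1 and 6.35) and the urokinase receptor Plaur (135 and 39.7). Higher were factor VII (F7, 0.669 and 13.2 CPM, 10 and 358 UMIs), F2rl2, Plau and Tgm1. The genes with the most UMIs were S100a10 (490 and 965 CPM) and Anxa2 (635 and 517), which form a plasminogen-binding complex. The bundle differs in cluster makeup, and within cluster 6 Thbd was 2.66-fold lower (14.9-fold in the bundle), Plaur 1.83-fold (3.40-fold), and the ratio of Anxa2 was 1.15 (1.05 to 1.26), against 0.814 in the bundle. Of the 7 coagulation genes counted in cluster 6, Thbd and Pros1 were at least 2-fold lower and Plgrkt and S100a10 higher, beside 8.64 and 3.48% of all genes.

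Of 48 genes of matrix and its receptors, 20 could be counted in the bundle, 7 were lower by 2-fold or more and 1 higher, beside the same 9.46 and 8.66% of all genes and with a median log2 ratio of -0.77. Among the lower ones were the thrombospondin receptor Cd36 (67.7 CPM in steady state and 24.6 after GM-CSF), the integrin chains Itgb3 (15.2 and 2.25) and Itgb5 (59.5 and 10.48), the hyaluronan receptor Cd44 (713 and 331) and the proteoglycan core protein Srgn (865 and 419). The higher one was osteopontin (Spp1, 2.41 and 5.98). Tgfbi, the list's gene with the most UMIs, was at 612 and 739 CPM. Within cluster 6 Cd44 was 1.27-fold lower (2.15-fold in the bundle), and of 14 matrix genes counted there Sdc3 was at least 2-fold lower and Ecm1 higher. In P-I cells 8 coagulation genes could be counted, of which Tgm2 and Thbd were lower and Plgrkt higher, and 15 matrix genes, of which Itgb5 and Cd36 were lower and Ecm1 higher, beside 7.12% lower and 4.99% higher of all genes counted there. Between P-I and P-III and between P-III and P-IV none of the genes counted on these 2 lists passed the fold limit (6 and 12 genes, then 7 and 12), where 2.71% and then 1.01% of all genes were lower and 1.11% and then 1.91% higher by that limit.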

How the data were processed

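The authors sorted CD11b+ splenocytes, made 10x 3′ v3 libraries with antibody tags and counted with Cell Ranger 3.0.2 on mm10 (version and build from the submitters' processing notes). The deposited values are raw UMI counts and raw tag counts per cell. Mitochondrial UMIs are deposited by the authors as a percent of each cell's UMIs. The authors removed cells under 200 or over 5000 genes or over 15% mitochondrial UMIs, and condition, cell type, cluster, CD115hi subset and phase are labels they deposited (Seurat 3.6.0). The library named Ctrl was taken as steady state.

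For each group of cells the counts of a gene were added up and given as CPM with exact Poisson 95% intervals. Ratios added 0.5 counts to each sum, and their exact intervals follow from the share of both sums' counts in 1 of them (Clopper-Pearson, used also for shares of cells). A gene was counted with at least 50 UMIs over both groups and called at 2-fold or more. Groups under 20 cells were left out of comparisons, and a sum of 0 was set to 3 counts for a bound. Simulated data were used to test the intervals and the fold limit, but no outcome of that is reported here and no result rests on it. Counts per cell were thinned to 1000 UMIs with seed 20 where shares are given thinned. Scrublet, run on each library with an exact neighbour search, called 152 and 186 cells as doublets, which were left out only in alternatives.

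Named are the 7 members, the 5 genes most alike to each member with at least 200 UMIs (log2(CPM + 10), Pearson's r over groups), and, from the pathway lists, genes past the fold limit and those of most UMIs. The members, the lists and the tests were chosen with earlier results of these data known. Marker lists served as checks of the labels. Of the classical monocyte list 1 gene is not reported here and was left out of its sums. Alternatives covered thinning, scaling to the median gene, doublets, the minimum of UMIs, platelet-positive cells, clusters 11, 14 and 15, the mitochondrial limit, the weighting of cells, the cluster mix and the Ly6C tag count. Added after the data were seen were the cluster mix of the bundle, G1 cells only, leaving out the top cell, and the co-detection in cluster 6. Gene positions came from GENCODE vM21 on GRCm38 and promoters from RefSeq on GRCm38.p6. Python 3.11.15, numpy 2.4.6, pandas 2.3.3, scipy 1.17.1, matplotlib 3.10.9, scikit-learn 1.9.0 and scanpy 1.11.5 were used. No test between conditions was made. The authors' matrices of the bundle alone were not used here, since the full tables hold the same cells.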

Additional observations from a re-analysis of the deposited data

Results flagged for a closer look

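The GM-CSF to steady-state ratio of Fn1 lay on opposite sides of 1 in bundle clusters, at 1.42 in cluster 8 and 0.0804 in cluster 9, with intervals that do not include 1. That of Vcan was 5.66 in cluster 7 and 0.383 in cluster 11. Each ratio compares 1 library with 1 library, and the difference between clusters was not tested. Cluster 9, which the authors describe as progenitor-like cells, held 121 Fn1 UMIs in steady state. All 152 steady-state cells labelled Progenitor DC held 5, so most of those UMIs lay in cells of other labels. In Progenitor DC cells Fn1 was at 4.05 CPM in steady state and 7.38 after GM-CSF. The steady-state sides rest on 28 cells in cluster 8, 122 in cluster 9, 31 in cluster 7 (5 Vcan UMIs) and 157 in cluster 11. Median tag counts of cluster 8 cells differed between the libraries, at 51.5 in steady state and 240 after GM-CSF for CD11c.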

How the results depend on the processing

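Of 248 ratios of the members recomputed under the alternatives, 183 stayed inside the interval first given, 65 moved outside it and none that had passed the fold limit turned its direction. The number of members at least 2-fold lower in P-I after GM-CSF was 3 and became 1 (of 2 counted) with each cell thinned to 1000 UMIs. From P-I to P-III the number was 2 and became 0 when thinned, 0 with a minimum of 200 UMIs, 4 with a minimum of 10 UMIs, and 1 with at most 5% mitochondrial UMIs, with G1 cells only and without the top cell. From P-III to P-IV it was 1 and became 2 with a minimum of 10 UMIs. The minimum changes how many members can be counted, and for the other settings the cause was not tested. The other counts of members stayed within 1.5 times of those given. No paired analysis was possible because each condition has 1 library, and for the same reason no replicate could be left out. Depth limits F3 in all groups, F5 and Thbs1 in P-III and P-IV, and the ratios of clusters 7 and 8, whose steady-state cells are few. The doublet calls depend on how neighbours are found.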
